A study of Mus musculus with 8 samples.

Results

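Bone marrow from mice with Trpv2 deleted in the myeloid lineage was grown into macrophages or into dendritic cells, and the 4 knockout libraries, 2 of each culture, were compared with each other out of 8 libraries in all. The comparison joined the 2 count tables by gene identifier and used the 13689 genes listed in both. All BMDM libraries are in 1 count table and all BMDC libraries in the other. Culture and any difference in how the 2 were processed therefore cannot be told apart. The mice were C57BL/6 with both Trpv2 alleles flanked by loxP (Trpv2fl/fl) and carried Lyz2-Cre, in which the Lyz2 locus drives Cre recombinase. Knockout bone marrow-derived macrophages (BMDM) were grown for 7 days in M-CSF at 10 ng/mL, and knockout bone marrow-derived dendritic cells (BMDC) for 7 days in GM-CSF at 20 ng/mL, both in DMEM with fetal bovine serum. The other 4 libraries, 2 BMDM and 2 BMDC of Trpv2fl/fl mice without Cre, served as the control pair against which the knockout pair was set. The labels used here do not say whether 1 mouse gave both a BMDM and a BMDC culture, and with 2 libraries a group the p-values measure the spread between these libraries.

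M-CSF and GM-CSF are cytokines that drive the growth and differentiation of myeloid progenitors. M-CSF signals through the receptor tyrosine kinase encoded by Csf1r and yields adherent macrophages that clear debris and handle lipids. GM-CSF signals through a receptor whose shared beta chain is encoded by Csf2rb, activates the transcription factor STAT5, and yields a mixed culture of dendritic cells, macrophages and some granulocytes. Trpv2 is a TRP family gene for a cation channel that passes calcium and that macrophages express strongly. The comparison asks which differences between the 2 cultures are seen in cells with Trpv2 deleted.

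The labels were checked first. Trpv2 stood at 26.2 and 28.9 CPM (counts relative to the library total, scaled by TMM) in the BMDM knockout, against 35.4 and 56 CPM in the BMDC knockout. All 4 values lay below the control values of 277 and 278 CPM in BMDM and 181 and 241 CPM in BMDC, which were scaled within the control libraries. The knockout cultures did not differ past the threshold in Trpv2 (log2 fold change -0.73, SE 0.35, adjusted p = 0.43). Lyz2, the lysozyme gene whose locus carries Cre, had 240.3 and 272 CPM in the BMDM knockout and 103 and 201 CPM in the BMDC knockout (log2 fold change 0.75, SE 0.42, adjusted p = 0.51), while the control libraries had between 17450 and 64460 CPM. Loss of Trpv2 and the low Lyz2 level therefore come together in all 4 knockout libraries, and their effects cannot be told apart. In bulk RNA, fewer cells of a type and less RNA per cell cannot be told apart either.

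BMDC knockout 2 stood apart from BMDC knockout 1 and from both BMDC control libraries. Totals were 15790185 and 17176941 counts in the BMDM knockout and 17062351 and 17588322 counts in the BMDC knockout. The rank correlation across genes was 0.991 between the BMDM knockout libraries, against 0.896 between the BMDC knockout libraries. With BMDC control 1 and 2, BMDC knockout 1 had 0.984 and 0.986, where BMDC knockout 2 had 0.910 and 0.908. With the BMDM libraries of both genotypes, BMDC knockout 2 had 0.8893 to 0.9105. By gene length, the median of BMDC knockout 2 minus BMDC knockout 1 was 0.87 on the log2 scale in the shortest of 5 equal groups of genes and -0.77 in the longest, where BMDM knockout 2 minus BMDM knockout 1 gave 0.09 and -0.14. The part of length in the results was not tested beyond a fit with the length trend removed. The spread between replicates (biological coefficient of variation) was 0.375, against 0.190 in the control libraries, and the smallest knockout difference called had a log2 size of 1.86.

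With the quasi-likelihood test of edgeR and a threshold of 0.05 on the adjusted p (Benjamini-Hochberg), 281 of 11350 genes (2.48%) differed between the knockout cultures. Of these, 88 (0.775% of the tested genes) were higher and 193 (1.70%) lower in the BMDM knockout. Values of the 2 groups did not overlap for 44.6% of the tested genes, 22.1% higher and 22.6% lower. Removing BMDC knockout 1 or BMDC knockout 2 raised the number of calls to 5319 (45.8%) or 5193 (44.4%), a fit in which the remaining BMDC library is assumed to vary like the BMDM pair. All 281 calls passed there too, and 276 passed with the length trend removed, where 557 genes (4.91%) were called. Without BMDM knockout 1 there were 244 calls (2.08%), 165 of them among the 281, and without BMDM knockout 2 there were 238 (2.02%), 164 of them among the 281. In all 4 runs 152 genes passed, and no call changed sign. In fits without 1 BMDM library the lone BMDM library is assumed to vary like the BMDC pair, and the log2 fold changes of the named genes that lost their call there were 0.845 to 1.11 times those of all 4 libraries. Where a list's median changed sign or moved by over 1.5 times without 1 library, its value without that library is given beside it. Counts of calls in each list below stand against 0.775% called higher and 1.70% called lower among all tested genes.

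Of the 6 markers chosen for the 2 cultures, 4 differed. Slc13a3, a sodium-coupled dicarboxylate transporter, had 696 and 747 CPM in the BMDM knockout and 0.50 and 0.901 CPM in the BMDC knockout (log2 fold change 10.02, SE 0.56, adjusted p = 0.011). Mmp8, a neutrophil collagenase, had 54.5 and 58.1 CPM in the BMDM knockout against 2169 and 1717 CPM in the BMDC knockout (log2 fold change -5.11, SE 0.40, adjusted p = 0.015). These 2 markers, chosen with earlier results of these data known, did not overlap between the cultures and went in opposite directions. Values did not overlap for 44.6% of all tested genes. Arg1, the arginase that makes ornithine from arginine, had 4 and 4 reads in the BMDM knockout against 10911 and 10061 reads in the BMDC knockout, a level 2559 times higher in BMDC (95% counting interval 1299 to 5928, adjusted p = 0.011, edgeR). Fn1, fibronectin, had 1 and 2 reads against 8164 and 4230 reads (BMDC over BMDM ratio 4033, interval 1380 to 19560, adjusted p = 0.011, edgeR). Intervals on read ratios cover counting error only.

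Adgre1 and C1qa, the markers F4/80 and complement C1q, did not pass in edgeR, whereas both passed with the DESeq2 test and C1qa also with the length trend removed. Adgre1 had 4126 and 3959 CPM in the BMDM knockout and 1702 and 1335 CPM in the BMDC knockout (log2 fold change 1.41, SE 0.36, adjusted p = 0.13, but 0.014 with the DESeq2 test). C1qa, which encodes a chain of the complement recognition protein C1q, had 112 and 128 CPM against 14.2 and 36.2 CPM (log2 fold change 2.25, SE 0.52, adjusted p = 0.1, but 6.2e-04 with the DESeq2 test and 0.012 with the length trend removed). Both genes were higher in every BMDM library than in every BMDC library, as were 22.1% of all tested genes. The other C1q chains gave the same picture, with C1qb at 638 and 750 CPM against 26.1 and 152 CPM (log2 fold change 2.96, SE 0.86, adjusted p = 0.17, but 2.1e-04 with the DESeq2 test and 0.034 with the length trend removed) and C1qc at 452 and 467 CPM against 18.9 and 93.4 CPM (log2 fold change 3.03, SE 0.79, adjusted p = 0.13, but 5.5e-05 with the DESeq2 test and 0.044 with the length trend removed). In the control libraries all 3 chains passed, with log2 differences of 3.90, 5.13 and 5.00.

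**Figure D1:**
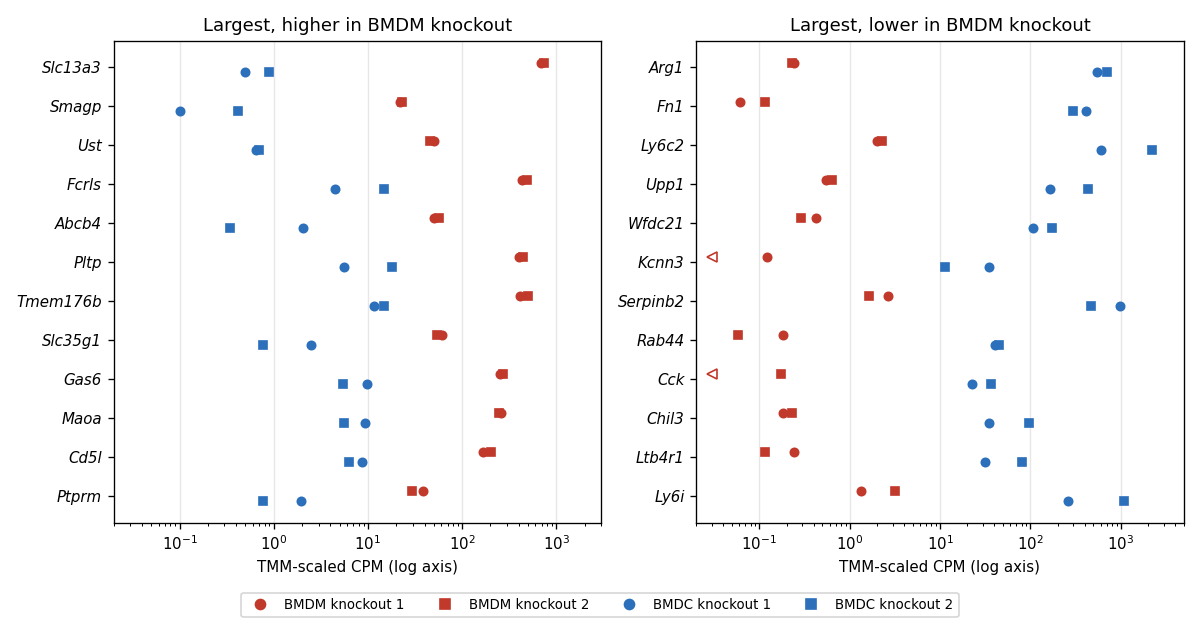
TMM-scaled CPM (log axis) in each knockout library for the 12 called genes with the largest change in each direction and a mean of at least 10 CPM, with BMDM knockout in red and BMDC knockout in blue; left-pointing triangles mark libraries with no read. The 24 genes were picked among called genes without overlap between BMDM and BMDC values, so their lying apart follows from that choice.

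The 12 largest calls higher in the BMDM knockout included genes of receptors, lipid handling and transport. Slc13a3 led the list with the values above. Fcrls, an Fc receptor-like scavenger receptor known from microglia in mouse, had 437 and 493 CPM in the BMDM knockout and 4.45 and 15 CPM in the BMDC knockout (log2 fold change 5.58, SE 0.72, adjusted p = 0.032). Pltp, which transfers phospholipids between lipoproteins, had 397 and 447 CPM against 5.55 and 17.9 CPM (log2 fold change 5.17, SE 0.69, adjusted p = 0.034). Abcb4, a phosphatidylcholine exporter, had 49.7 and 56.2 CPM against 2.05 and 0.347 CPM (log2 fold change 5.41, SE 0.80, adjusted p = 0.043). All 3 were low in both BMDC libraries, with Fcrls and Pltp lower in BMDC knockout 1 and Abcb4 lower in BMDC knockout 2.

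Secreted and enzyme genes of the same group included Gas6, the ligand of the TAM receptors that bind dying cells, at 252 and 269 CPM in the BMDM knockout and 9.7 and 5.41 CPM in the BMDC knockout (log2 fold change 5.11, SE 0.46, adjusted p = 0.017). Cd5l, a secreted scavenger receptor-like protein of tissue macrophages, had 167 and 203 CPM against 8.75 and 6.31 CPM (log2 fold change 4.62, SE 0.39, adjusted p = 0.015). The monoamine oxidase gene Maoa had 258 and 248 CPM against 9.3 and 5.62 CPM (log2 fold change 5.08, SE 0.43, adjusted p = 0.015). Both BMDM libraries of these 3 genes lay close together. Tmem176b, a membrane protein of the MS4A-like group, stood at 412 and 506 CPM against 11.5 and 14.7 CPM (log2 fold change 5.13, SE 0.40, adjusted p = 0.015). Its partner Tmem176a, which lies beside it, also passed (log2 fold change 4.42, SE 0.36, adjusted p = 0.015). Smagp (log2 fold change 6.49, SE 0.68, adjusted p = 0.02), the sulfotransferase gene Ust (log2 fold change 6.14, SE 0.38, adjusted p = 0.011), the transporter gene Slc35g1 (log2 fold change 5.11, SE 0.63, adjusted p = 0.03) and the receptor tyrosine phosphatase gene Ptprm (log2 fold change 4.6, SE 0.57, adjusted p = 0.03) completed the 12.

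The 12 largest calls lower in the BMDM knockout included a monocyte antigen, secreted proteins and a chemoattractant receptor. Ly6c2, the Ly6C antigen of inflammatory monocytes, had 2.02 and 2.26 CPM in the BMDM knockout and 609 and 2221 CPM in the BMDC knockout (log2 fold change -9.36, SE 0.92, adjusted p = 0.018). Its relative Ly6i had 1.34 and 3.19 CPM against 259 and 1101 CPM (log2 fold change -8.22, SE 1.05, adjusted p = 0.032), and reads shared among Ly6 genes could have been split between them. Serpinb2, plasminogen activator inhibitor type 2, had 2.63 and 1.62 CPM against 987 and 475 CPM (log2 fold change -8.42, SE 0.67, adjusted p = 0.015). The Ly6 genes were higher in BMDC knockout 2 than in BMDC knockout 1, and Serpinb2 was the reverse. Upp1, uridine phosphorylase, had 0.55 and 0.638 CPM against 166 and 432 CPM (log2 fold change -8.96, SE 0.74, adjusted p = 0.015), and Wfdc21 had 0.428 and 0.29 CPM against 108 and 175 CPM (log2 fold change -8.60, SE 0.54, adjusted p = 0.011).

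Several genes of this group were almost unread in the BMDM knockout. Chil3, the chitinase-like protein Ym1, had 3 and 4 reads there against 692 and 1391 reads in the BMDC knockout (BMDC over BMDM ratio 290.5, interval 140.7 to 723.4, adjusted p = 0.018, edgeR). The leukotriene B4 receptor gene Ltb4r1 had 4 and 2 reads against 629 and 1168 reads (ratio 292, interval 134 to 798, adjusted p = 0.018, edgeR). Rab44 had 3 and 1 reads against 805 and 642 reads (ratio 353, interval 138 to 1298, adjusted p = 0.013, edgeR). Absence of overlap between the cultures was a condition for naming the genes of this group. The potassium channel gene Kcnn3 had 2 and 0 reads against 704 and 165 reads (ratio 424, interval 117 to 3508, adjusted p = 0.033, edgeR). Cck, the gene of the peptide hormone cholecystokinin, had 0 and 3 reads against 457 and 524 reads (ratio 319, interval 109 to 1551, adjusted p = 0.022, edgeR).

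Promoters are shown for 5 of the genes with the largest changes, so that the letters before their starts can be read. The sequences are from RefSeq on GRCm38.p6, cover 250 bases before to 50 after the annotated start, and read 5′ to 3′ on the gene's strand, with capitals marking matches on either strand to GAGGAA (the core bound by PU.1, the ETS factor of myeloid cells), TGCTGA (a half-site of MAF factors) or TTCNNNGAA (the site of STAT factors). TTCCTC and TCAGCA are the reverse complements of GAGGAA and TGCTGA, and TTCCTC can share letters with TTCNNNGAA. Each of the 5 promoters shown holds a match. The first listed promoters of Gas6, Slc35g1, Ptprm, Tmem176b, Upp1 and Kcnn3, also among the largest changes, hold none and are not shown.
Slc13a3, chr2:165473148-165473447, minus strand: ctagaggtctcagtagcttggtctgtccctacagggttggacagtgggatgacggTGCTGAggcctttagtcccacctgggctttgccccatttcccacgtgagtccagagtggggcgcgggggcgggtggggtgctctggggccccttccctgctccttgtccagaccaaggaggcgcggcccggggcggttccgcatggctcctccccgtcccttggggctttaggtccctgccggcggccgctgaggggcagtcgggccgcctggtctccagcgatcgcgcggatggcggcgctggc
Cd5l, chr3:87357631-87357930, plus strand: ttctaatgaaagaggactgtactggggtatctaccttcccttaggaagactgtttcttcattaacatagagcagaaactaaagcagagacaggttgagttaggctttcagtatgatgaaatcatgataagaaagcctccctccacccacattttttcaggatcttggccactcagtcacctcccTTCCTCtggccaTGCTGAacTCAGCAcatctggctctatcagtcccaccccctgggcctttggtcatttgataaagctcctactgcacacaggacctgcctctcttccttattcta
Fcrls, chr3:87263475-87263774, minus strand: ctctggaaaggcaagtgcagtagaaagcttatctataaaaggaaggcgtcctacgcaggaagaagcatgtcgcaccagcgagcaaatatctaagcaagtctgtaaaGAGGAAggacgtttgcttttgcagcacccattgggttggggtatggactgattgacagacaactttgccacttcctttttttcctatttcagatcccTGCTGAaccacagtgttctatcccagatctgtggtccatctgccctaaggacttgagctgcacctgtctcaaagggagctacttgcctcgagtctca
Chil3, chr3:106167515-106167814, minus strand: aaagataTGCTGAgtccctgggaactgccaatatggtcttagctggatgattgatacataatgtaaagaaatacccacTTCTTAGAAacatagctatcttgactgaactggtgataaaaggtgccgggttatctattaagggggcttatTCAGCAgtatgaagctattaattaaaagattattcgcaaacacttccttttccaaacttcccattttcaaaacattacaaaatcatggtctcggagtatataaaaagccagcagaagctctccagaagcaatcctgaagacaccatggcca
Ltb4r1, chr14:55765712-55766011, plus strand: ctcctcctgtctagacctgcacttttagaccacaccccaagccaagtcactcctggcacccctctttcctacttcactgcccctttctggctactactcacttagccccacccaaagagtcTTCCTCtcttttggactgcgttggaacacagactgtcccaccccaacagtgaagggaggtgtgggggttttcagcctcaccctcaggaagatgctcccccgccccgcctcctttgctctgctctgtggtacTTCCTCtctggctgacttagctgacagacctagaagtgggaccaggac
TGCTGA was present in the first listed promoter of 7 of the 12 largest higher genes and of 2 of the 7 largest lower genes that had an entry. Over all called genes with an entry it was present in 34.7% of 75 higher genes and in 18.6% of 140 lower genes, against 14.7% of 9171 tested genes and 19.1% of 27025 promoters in the table. GAGGAA was present in 37.3% of the higher genes and 35.0% of the lower genes, against 27.0% of the tested genes and 28.3% of all promoters. TTCNNNGAA was present in 8.0% and 7.14%, against 6.84% and 8.47%. A match is a description of the letters and was not tested.

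**Figure D2:**
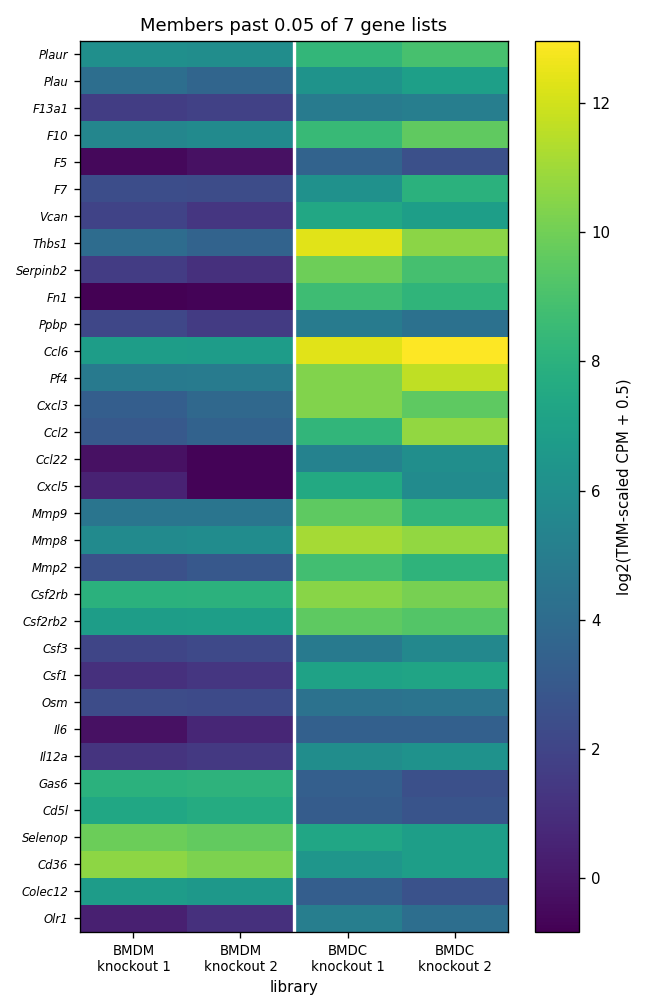
Heat map of log2(TMM-scaled CPM + 0.5) in the 4 knockout libraries (columns, BMDM knockout left of the white line, BMDC knockout right of it) for the 33 called members of 7 gene lists (rows), grouped by list from coagulation and matrix at the top to macrophage and scavenger genes at the bottom. The BMDM knockout columns are darker than the BMDC knockout columns in the upper rows, from Plaur to Il12a, and brighter in Gas6, Cd5l, Selenop, Cd36 and Colec12.

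Genes for colony-stimulating factors and their receptors were all lower in the BMDM knockout where they passed. Of 8 tested members, 0 were called higher and 4 lower, against 0.775% and 1.70% of all tested genes. The median log2 fold change was -1.85, where all genes tested had a median of -0.09. Csf1, which encodes M-CSF itself, had 1.59 and 2.09 CPM in the BMDM knockout and 136 and 150.4 CPM in the BMDC knockout (log2 fold change -6.28, SE 0.39, adjusted p = 0.011). Csf2rb, the beta chain of the GM-CSF receptor, had 252 and 261 CPM against 1489 and 1133 CPM (log2 fold change -2.35, SE 0.36, adjusted p = 0.044). The closely related Csf2rb2, whose reads could be split with Csf2rb, had 116 and 117 CPM against 748 and 611 CPM (log2 fold change -2.54, SE 0.34, adjusted p = 0.034). In each of these genes both BMDC libraries lay above both BMDM libraries, as for 22.6% of all tested genes. Csf3, the gene of G-CSF, fell as well (log2 fold change -3.31, SE 0.42, adjusted p = 0.031). Csf1r had 3228 and 3780 CPM in the BMDM knockout against 1468 and 1884 CPM in the BMDC knockout (log2 fold change 1.06, SE 0.36, adjusted p = 0.24), and the alpha chain Csf2ra had 434 and 452 CPM against 366 and 701 CPM (log2 fold change -0.27, SE 0.42, adjusted p = 0.85). Csf2rb, Csf2rb2 and Csf3 did not pass without BMDM knockout 1 (adjusted p = 0.071 to 0.69) or without BMDM knockout 2 (adjusted p = 0.051 to 0.56).

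Transcription factor genes and STAT5 targets followed. Of 36 tested myeloid transcription factor genes, 0 were called higher and 6 lower, against 0.775% and 1.70% of all tested genes (median log2 fold change -0.35, but -0.20 without BMDM knockout 1, -0.69 without BMDC knockout 1 and 0.23 without BMDC knockout 2). Bhlhe40, a basic helix-loop-helix repressor, had 6.85 and 5.05 CPM in the BMDM knockout and 135 and 74.2 CPM in the BMDC knockout (log2 fold change -4.14, SE 0.46, adjusted p = 0.023). Irf4, a factor of dendritic cell subsets, had 1 and 3 reads against 256 and 177 reads (BMDC over BMDM ratio 106, interval 41.0 to 390, adjusted p = 0.018, edgeR). Cebpe, a granulocyte factor (log2 fold change -6.17, SE 0.88, adjusted p = 0.04), Runx3 (log2 fold change -3.29, SE 0.44, adjusted p = 0.033) and Id1 (log2 fold change -3.54, SE 0.50, adjusted p = 0.039) were lower in the BMDM knockout too, as was Gata2 with 1 and 2 reads against 50 and 107 reads (ratio 51.1, interval 17.2 to 250, adjusted p = 0.0499, edgeR). The SOCS family genes Cish (0.428 and 1.04 CPM against 24.6 and 38 CPM, log2 fold change -5.39, SE 0.59, adjusted p = 0.023) and Socs2 (0.183 and 0.058 CPM against 9.1 and 7.97 CPM, log2 fold change -6.07, SE 0.66, adjusted p = 0.022), known targets of STAT5, were lower in the BMDM knockout. Spi1, which encodes PU.1, did not pass (log2 fold change 0.49, SE 0.51, adjusted p = 0.76). Runx3 and Id1 did not pass without BMDM knockout 1 (adjusted p = 0.16 to 0.19) or without BMDM knockout 2 (adjusted p = 0.063 to 0.13).

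The chemokine genes that passed were all lower in the BMDM knockout. Of 21 tested CC and CXC chemokine genes, 0 were called higher and 7 lower, against 0.775% and 1.70% of all tested genes (median log2 fold change -2.62, but -0.99 without BMDC knockout 2). Ccl6 had 114 and 112 CPM in the BMDM knockout and 5220 and 8011 CPM in the BMDC knockout (log2 fold change -5.87, SE 0.48, adjusted p = 0.015). Ccl2, the monocyte chemoattractant, had 7.64 and 10.7 CPM against 306 and 1689 CPM (log2 fold change -6.77, SE 1.01, adjusted p = 0.043), and BMDC knockout 2 was the highest library. Cxcl3, a neutrophil chemoattractant, had 9.17 and 13.9 CPM against 1319 and 741 CPM (log2 fold change -6.48, SE 0.56, adjusted p = 0.015). Every BMDM value of these 3 genes lay below every BMDC value, as for 22.6% of all tested genes. Ccl22 (log2 fold change -7.69, SE 0.66, adjusted p = 0.015), Cxcl5 (log2 fold change -7.88, SE 1.13, adjusted p = 0.04), Pf4 (log2 fold change -6.28, SE 0.63, adjusted p = 0.018) and Ppbp (log2 fold change -2.97, SE 0.45, adjusted p = 0.044) were the others. Of 12 chemokine receptor genes, 0 were called higher and 2 lower (median log2 fold change -1.55), among them Ccr1 (6.85 and 6.96 CPM against 408 and 339 CPM, log2 fold change -5.75, SE 0.38, adjusted p = 0.013). Ppbp did not pass without BMDM knockout 1 (adjusted p = 0.086) or without BMDM knockout 2 (adjusted p = 0.23).

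Coagulation, plasminogen and matrix genes that passed were all lower in the BMDM knockout. Of 20 tested members, 0 were called higher and 10 lower, against 0.775% and 1.70% of all tested genes (median log2 fold change -2.69). Thbs1, the matricellular protein thrombospondin-1, had 15.8 and 11.3 CPM in the BMDM knockout and 5303 and 1504 CPM in the BMDC knockout (log2 fold change -7.97, SE 0.88, adjusted p = 0.023). The proteoglycan gene Vcan had 3.36 and 2.09 CPM against 174 and 119 CPM (log2 fold change -5.75, SE 0.47, adjusted p = 0.015). F10, coagulation factor X, had 44.1 and 54.6 CPM against 348 and 772 CPM (log2 fold change -3.51, SE 0.52, adjusted p = 0.043). Thbs1 was the most variable between the BMDC libraries, but both stood above both BMDM libraries, as for 22.6% of all tested genes. The factor genes F7 (log2 fold change -5.11, SE 0.73, adjusted p = 0.04), F5 (log2 fold change -4.92, SE 0.70, adjusted p = 0.04) and F13a1 (log2 fold change -3.46, SE 0.35, adjusted p = 0.019), and the urokinase and its receptor, Plau (log2 fold change -2.74, SE 0.41, adjusted p = 0.043) and Plaur (log2 fold change -2.65, SE 0.38, adjusted p = 0.041), were lower as well, beside Fn1 and Serpinb2 given above. F10, F13a1, Plau and Plaur did not pass without BMDM knockout 1 (adjusted p = 0.059 to 0.37). F10, Plau and Plaur did not pass without BMDM knockout 2 (adjusted p = 0.092 to 0.39). Of 17 matrix metalloproteinase and inhibitor genes, 0 were called higher and 3 lower (median log2 fold change -1.24, but -0.58 without BMDM knockout 2). These were Mmp8, the gelatinase gene Mmp2 (5.56 and 7.37 CPM against 437 and 282 CPM, log2 fold change -5.80, SE 0.46, adjusted p = 0.015) and the gelatinase gene Mmp9 (22.4 and 22.4 CPM against 738 and 308 CPM, log2 fold change -4.55, SE 0.56, adjusted p = 0.03). Mmp12 (log2 fold change -2.39, SE 0.53, adjusted p = 0.098, but 1.1e-04 with the DESeq2 test) and Mmp13 (log2 fold change -4.99, SE 1.29, adjusted p = 0.13, but 2.5e-08 with the DESeq2 test) did not pass.

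Members of the list for arginine metabolism and alternative activation that passed were also all lower in the BMDM knockout. Of 17 tested genes, 0 were called higher and 6 lower, against 0.775% and 1.70% of all tested genes (median log2 fold change -1.81). Slc7a2, a cationic amino acid transporter that carries arginine, had 2.57 and 2.67 CPM in the BMDM knockout and 142 and 126 CPM in the BMDC knockout (log2 fold change -5.67, SE 0.35, adjusted p = 0.011). Mgl2, a lectin of dendritic cells, had 0 and 2 reads against 163 and 120 reads (BMDC over BMDM ratio 138, interval 37.9 to 1146, adjusted p = 0.031, edgeR). Arg1, Chil3, Cish and Socs2 made up the 6. They were given above, Cish and Socs2 as STAT5 targets, and are not separate observations. Ass1, which rebuilds arginine, had 55.7 and 59.8 CPM against 213 and 634 CPM (log2 fold change -2.87, SE 0.60, adjusted p = 0.085, but 8.7e-06 with the DESeq2 test and 0.03 with the length trend removed), and Nos2, the inducible nitric oxide synthase, had 65.3 and 110.1 CPM against 143 and 394 CPM (log2 fold change -1.61, SE 0.59, adjusted p = 0.28), so neither passed.

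Markers of other blood cells shared members with these groups. The calls Mmp8, Mmp9, Cebpe, Ltb4r1, Pf4, Ppbp and Gata2 were already given above, so they are not separate observations. Of 16 tested neutrophil markers, 0 were called higher and 7 lower, against 0.775% and 1.70% of all tested genes. Their median log2 fold change was -5.48, and -4.90 with the genes unread in both BMDM libraries set to a floor of 3 counts over the group. The summed level of the list was 176 and 205 CPM in the BMDM knockout, against 4400 and 4320 CPM in the BMDC knockout, where Mmp8, Lcn2 and Mmp9 made up most of it. Lcn2, neutrophil gelatinase-associated lipocalin, had 9.17 and 15.3 CPM against 1200 and 1721 CPM (log2 fold change -6.90, SE 0.54, adjusted p = 0.015). S100a9 had 0 and 1 reads against 99 and 322 reads (BMDC over BMDM ratio 411, interval 73.4 to 16270, adjusted p = 0.047, edgeR), and the other calls were Stfa3 (log2 fold change -7.14, SE 0.49, adjusted p = 0.013), whose near-identical relatives could share reads, with Cebpe, Ltb4r1, Mmp8 and Mmp9. Members of the list that are in the BMDC table only had few reads there, with 0 and 1 of the surface antigen gene Ly6g, 0 and 1 of Retnlg, 7 and 58 of the granule enzyme gene Mpo, 18 and 72 of the granule protease gene Prtn3, 8 and 21 of Stfa1 and 5 and 12 of Stfa2. Of 7 platelet markers, 0 were called higher and 3 lower (median log2 fold change -1.54), summed at 78.4 and 83.5 CPM in the BMDM knockout against 1532 and 3420 CPM in the BMDC knockout, where Pf4 alone had 1310 and 3161 CPM. The third call of that list beside Pf4 and Ppbp was Vwf, von Willebrand factor (38.8 and 41.8 CPM against 182 and 207 CPM, log2 fold change -2.27, SE 0.31, adjusted p = 0.037). Of 8 mast cell, basophil and eosinophil markers, 0 were called higher and 2 lower (median log2 fold change -4.6), with Kit at 1.16 and 1.39 CPM against 94.8 and 22.5 CPM (log2 fold change -5.51, SE 0.84, adjusted p = 0.045) beside Gata2. The part of other cell types in the lower genes was not tested. Vwf and Ppbp did not pass without BMDM knockout 1 (adjusted p = 0.086 to 0.55) or without BMDM knockout 2 (adjusted p = 0.23 to 0.45).

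Genes of resident macrophages, scavenging and clearance of dead cells included calls in both directions. Of 25 tested resident macrophage markers, 3 were called higher and 1 lower, against 0.775% and 1.70% of all tested genes (median log2 fold change 1.06). A log2 fold change above 0 was seen in 19 of the 25, where 4960 of all 11350 tested genes had one. Selenop, a secreted selenium carrier, had 943 and 816 CPM in the BMDM knockout and 159.5 and 118 CPM in the BMDC knockout (log2 fold change 2.67, SE 0.37, adjusted p = 0.037). Of 17 scavenger receptor genes, 3 were called higher and 1 lower (median log2 fold change 0.21, but 0.09 without BMDM knockout 2, 0.09 without BMDC knockout 1 and 0.57 without BMDC knockout 2). Cd36, which takes up oxidised lipoproteins and fatty acids, had 1584 and 1202 CPM against 86.5 and 118 CPM (log2 fold change 3.77, SE 0.41, adjusted p = 0.022), and Colec12, a collectin of the cell surface, had 111 and 91.4 CPM against 9.3 and 5.82 CPM (log2 fold change 3.74, SE 0.40, adjusted p = 0.021). Both were higher in each BMDM library than in each BMDC library, as were 22.1% of all tested genes. Olr1, the receptor LOX-1, was lower (0.795 and 1.62 CPM against 33.6 and 17.6 CPM, log2 fold change -4.39, SE 0.60, adjusted p = 0.035). Of 20 efferocytosis genes, 2 were called higher and 1 lower (median log2 fold change -0.09, but -0.05 without BMDC knockout 1 and 0.40 without BMDC knockout 2). Pros1, protein S, which like Gas6 binds TAM receptors, was higher (44.6 and 34.3 CPM against 7.3 and 6.45 CPM, log2 fold change 2.52, SE 0.34, adjusted p = 0.035). Cd300lf was lower (1.71 and 1.86 CPM against 374 and 454 CPM, log2 fold change -7.85, SE 0.43, adjusted p = 0.011). The TAM receptor gene Mertk had 43.5 and 37.7 CPM against 20.9 and 19.8 CPM and did not pass (log2 fold change 0.99, SE 0.30, adjusted p = 0.18). Selenop and Pros1 did not pass without BMDM knockout 1 (adjusted p = 0.18 to 0.2) or without BMDM knockout 2 (adjusted p = 0.06 to 0.12).

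Fc receptor, complement and integrin genes went both ways. Of 9 Fc receptor genes, 1 was called higher and 1 lower (median log2 fold change 0.69, but -0.13 without BMDC knockout 1 and 2.88 without BMDC knockout 2), with Fcrls higher and the inhibitory receptor gene Fcgr2b lower (78.5 and 88.2 CPM in the BMDM knockout against 682 and 1001 CPM in the BMDC knockout, log2 fold change -3.34, SE 0.39, adjusted p = 0.027). Of 20 complement genes, 1 was called higher and 3 lower (median log2 fold change -0.59). Cd55, a brake on complement at the cell surface, had 36.2 and 35.6 CPM against 1.45 and 1.52 CPM (log2 fold change 4.59, SE 0.36, adjusted p = 0.015), and C3, the central component, had 556 and 655 CPM against 2706 and 2842 CPM (log2 fold change -2.20, SE 0.35, adjusted p = 0.049). Cd55 was thus scarce in the BMDC knockout, where C3 was abundant. Itgam, the CD11b chain of complement receptor 3, had 134 and 133 CPM against 716 and 702 CPM (log2 fold change -2.41, SE 0.33, adjusted p = 0.035), and C1s1 was lower (log2 fold change -3.38, SE 0.52, adjusted p = 0.047). Of 16 integrin genes, 1 was called higher and 2 lower (median log2 fold change -0.41, but -0.65 without BMDC knockout 1), with Itga9 higher (18.1 and 16.6 CPM against 0.70 and 1.18 CPM, log2 fold change 4.22, SE 0.47, adjusted p = 0.023) and Itga1 lower (2.69 and 2.78 CPM against 69.7 and 33.1 CPM, log2 fold change -4.23, SE 0.50, adjusted p = 0.027). Fcgr2b, C3, Itgam and C1s1 did not pass without BMDM knockout 1 (adjusted p = 0.22 to 0.92) or without BMDM knockout 2 (adjusted p = 0.15 to 0.63).

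The dendritic cell label was checked against its markers. Of 21 tested dendritic cell markers, 1 was called higher and 6 lower, against 0.775% and 1.70% of all tested genes (median log2 fold change -2.02). Itgax, the CD11c gene, had 40.5 and 36.5 CPM in the BMDM knockout and 113 and 200.1 CPM in the BMDC knockout and did not pass (log2 fold change -2.02, SE 0.40, adjusted p = 0.074, but 6.0e-04 with the DESeq2 test and 0.049 with the length trend removed). The called lower genes were Ccl22, Irf4, Kit and Mgl2 given above, Cd24a (6.11 and 5.39 CPM against 248 and 128 CPM, log2 fold change -5.03, SE 0.49, adjusted p = 0.018) and Jaml (log2 fold change -6.25, SE 0.81, adjusted p = 0.032), and Tnip3 was higher (154 and 162 CPM against 28.4 and 29.9 CPM, log2 fold change 2.43, SE 0.30, adjusted p = 0.03). Flt3 had 4 and 5 reads in the BMDC knockout, is not listed in the BMDM table, and Zbtb46 had 1 and 2 reads in the BMDM knockout and 17 and 5 reads in the BMDC knockout. Flt3 and Zbtb46 were thus near 0 in the BMDC knockout libraries, and Cd209a had 0 and 0 reads there. Among the 21 tested markers, 14 were higher in both BMDC libraries than in both BMDM libraries and 3 were the reverse. The shares over all tested genes were 22.6% and 22.1%. Of 13 antigen presentation genes of MHC class II, none was called (median log2 fold change -1.44). H2-Aa, a class II chain, had 30.5 and 39.6 CPM against 77.1 and 113 CPM (log2 fold change -1.44, SE 0.35, adjusted p = 0.12, but 0.03 with the DESeq2 test), and Cd74, the invariant chain, had 179.6 and 213 CPM against 235 and 623 CPM (log2 fold change -1.13, SE 0.53, adjusted p = 0.41). Of 16 costimulator genes, 0 were called higher and 2 lower (median log2 fold change -0.85), with Cd86 at 5.32 and 6.26 CPM against 73.6 and 118 CPM (log2 fold change -4.05, SE 0.41, adjusted p = 0.018) and Tnfsf14 also lower (log2 fold change -6.36, SE 0.76, adjusted p = 0.028). Tnip3 did not pass without BMDM knockout 1 (adjusted p = 0.1) or without BMDM knockout 2 (adjusted p = 0.13).

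Cytokine and lipid mediator genes were lower in the BMDM knockout where they passed. Of 21 interleukin-1 family and inflammasome genes, 0 were called higher and 3 lower (median log2 fold change -1.38, but -0.64 without BMDC knockout 2). Il1a had 15.8 and 15.1 CPM in the BMDM knockout and 119 and 126 CPM in the BMDC knockout (log2 fold change -2.98, SE 0.30, adjusted p = 0.019), and the receptors Il1r1 (log2 fold change -3.72, SE 0.54, adjusted p = 0.041) and Il1r2 (2 and 0 reads against 117 and 228 reads, BMDC over BMDM ratio 168, interval 46.3 to 1396, adjusted p = 0.043, edgeR) were the others. Il1b had 30.6 and 57.2 CPM against 129 and 172 CPM and did not pass (log2 fold change -1.78, SE 0.43, adjusted p = 0.11, but 0.0064 with the DESeq2 test). Of 20 genes of TNF, IL-6, IL-10 and IL-12 type cytokines, 0 were called higher and 3 lower (median log2 fold change -0.45, but -0.18 without BMDC knockout 2). Il12a, a chain of interleukin-12, had 1.83 and 2.2 CPM against 60.5 and 72.9 CPM (log2 fold change -5.04, SE 0.37, adjusted p = 0.015), Il6 had 0.367 and 1.04 CPM against 10.1 and 9.98 CPM (log2 fold change -3.81, SE 0.62, adjusted p = 0.0497), and Osm, oncostatin M, had 4.77 and 4.23 CPM against 20.4 and 21.6 CPM (log2 fold change -2.22, SE 0.35, adjusted p = 0.047). Of 20 prostaglandin and leukotriene genes, 0 were called higher and 3 lower (median log2 fold change -0.73). Ptgs1, cyclooxygenase-1, had 2.81 and 2.49 CPM against 132 and 91.4 CPM (log2 fold change -5.39, SE 0.40, adjusted p = 0.015), and Alox5, which starts leukotriene synthesis, had 7.95 and 9.4 CPM against 118 and 89.8 CPM (log2 fold change -3.58, SE 0.35, adjusted p = 0.018), alongside Ltb4r1. Il1a, Il6 and Osm did not pass without BMDM knockout 1 (adjusted p = 0.13 to 0.44). Il1a and Osm did not pass without BMDM knockout 2 (adjusted p = 0.14 to 0.51).

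Purine signalling genes gave 5 calls. Of 16 purinergic receptor and ectonucleotidase genes, 0 were called higher and 5 lower, against 0.775% and 1.70% of all tested genes (median log2 fold change -0.89, but -0.59 without BMDM knockout 1). Adora2b, an adenosine receptor, had 2.69 and 3.25 CPM in the BMDM knockout and 32.9 and 37.6 CPM in the BMDC knockout (log2 fold change -3.57, SE 0.36, adjusted p = 0.018). Nt5e, the enzyme CD73 that makes adenosine from AMP, had 1 and 2 reads against 425 and 166 reads (BMDC over BMDM ratio 192, interval 65.5 to 935, adjusted p = 0.018, edgeR). Entpd1, the enzyme CD39 that acts upstream of CD73, had 37.2 and 36.5 CPM against 129 and 138 CPM (log2 fold change -1.85, SE 0.29, adjusted p = 0.049). The nucleotide receptor genes P2ry13 (log2 fold change -3.77, SE 0.35, adjusted p = 0.018) and P2ry14 (log2 fold change -2.62, SE 0.35, adjusted p = 0.035) were lower as well. Entpd1 and P2ry14 did not pass without BMDM knockout 1 (adjusted p = 0.19 to 0.78) or without BMDM knockout 2 (adjusted p = 0.24 to 0.75).

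Metabolic genes were called singly. Of 33 solute carrier genes, 2 were called higher and 3 lower (median log2 fold change -0.22, but -0.14 without BMDC knockout 1 and 0.04 without BMDC knockout 2), with the amino acid transporters Slc7a5 (log2 fold change -2.83, SE 0.46, adjusted p = 0.049) and Slc7a8 (log2 fold change -2.35, SE 0.38, adjusted p = 0.049) lower beside Slc7a2, and Slc9a9, an endosomal sodium/proton exchanger, higher (log2 fold change 2.13, SE 0.32, adjusted p = 0.043) beside Slc13a3. Of 29 glycolysis and hypoxia response genes, 1 was called higher and 2 lower (median log2 fold change -0.85), with Ndrg1 at 71.2 and 72.7 CPM in the BMDM knockout against 12.2 and 12.6 CPM in the BMDC knockout (log2 fold change 2.54, SE 0.30, adjusted p = 0.027), Vegfa at 35.9 and 34 CPM against 165 and 128 CPM (log2 fold change -2.06, SE 0.32, adjusted p = 0.047) and Egln3 at 9.66 and 8.53 CPM against 53.5 and 51.6 CPM (log2 fold change -2.53, SE 0.31, adjusted p = 0.03). These hypoxia-responsive genes thus passed in different directions. Of 29 cholesterol synthesis and LXR target genes, none was called (median log2 fold change 0.51, but 1.00 without BMDC knockout 1). Apoe, the apolipoprotein that exports cholesterol from macrophages, had 15320 and 17730 CPM against 37.9 and 393 CPM and did not pass, with the BMDC libraries far apart (log2 fold change 6.26, SE 1.26, adjusted p = 0.078, but 5.9e-15 with the DESeq2 test and 0.033 with the length trend removed). Of 22 NRF2 and heat shock genes, none was called (median log2 fold change 0.86), with 19 log2 fold changes above 0, where 4960 of all 11350 tested genes had one. Srxn1, sulfiredoxin, had 465 and 541 CPM against 95 and 129 CPM (log2 fold change 2.17, SE 0.35, adjusted p = 0.051, but 3.5e-05 with the DESeq2 test and 0.02 with the length trend removed). Of 35 lysosome genes, none was called (median log2 fold change -0.09, but 0.03 without BMDM knockout 1, -0.21 without BMDC knockout 1 and 0.45 without BMDC knockout 2), and of 16 iron genes, 1 was called higher and 1 lower (median log2 fold change 0.50, but 0.78 without BMDC knockout 1 and 0.84 without BMDC knockout 2), the calls being Steap3, a ferrireductase (37 and 38.3 CPM against 9.45 and 9.98 CPM, log2 fold change 1.95, SE 0.30, adjusted p = 0.047), higher and Lcn2 lower. Slc7a5, Slc7a8, Slc9a9, Ndrg1, Vegfa, Egln3 and Steap3 did not pass without BMDM knockout 1 (adjusted p = 0.062 to 0.58) or without BMDM knockout 2 (adjusted p = 0.078 to 0.6).

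**Figure D3:**
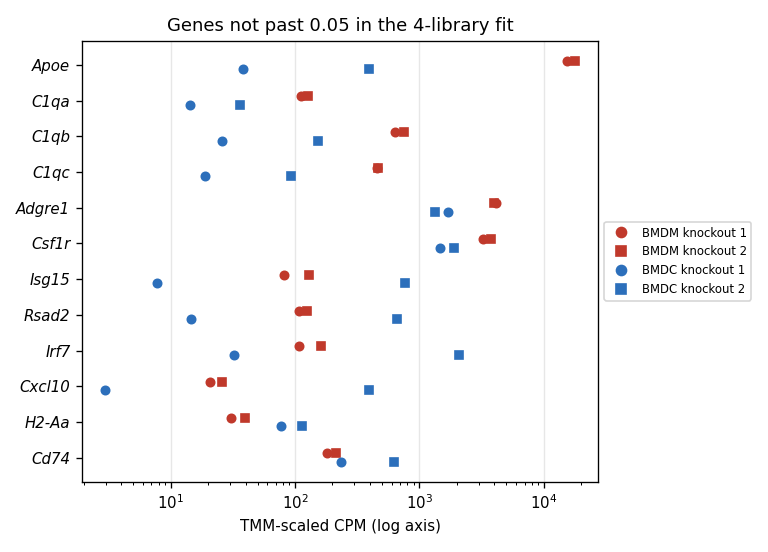
TMM-scaled CPM (log axis) in the 4 knockout libraries for 12 genes that did not pass in edgeR, with BMDM knockout in red and BMDC knockout in blue. For Isg15, Rsad2, Irf7 and Cxcl10 the BMDC knockout libraries lie on either side of the BMDM knockout pair, while for Apoe and the C1q genes both BMDC libraries lie below it.

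Interferon-stimulated genes could not be placed on one side. Of 47 tested members, none was called (median log2 fold change -1.09, but -2.01 without BMDC knockout 1 and 1.71 without BMDC knockout 2). The groups did not overlap for 1 of them, against 44.6% of all tested genes. Isg15, a ubiquitin-like antiviral protein, had 81.7 and 129 CPM in the BMDM knockout, against 7.8 and 767 CPM in the BMDC knockout. Irf7, the transcription factor that amplifies type I interferon, had 107 and 162 CPM against 32.1 and 2060 CPM. Cxcl10, an interferon-induced chemokine, had 20.7 and 25.9 CPM against 3.0 and 394 CPM. For all 3 genes BMDC knockout 1 was the lowest of the 4 libraries and BMDC knockout 2 the highest. In the control libraries the list's median was 0.75. The direction of the median depends on which BMDC knockout library is used. Cytosolic ribosomal protein genes also turned with the library, where of 43 tested none was called (median log2 fold change 0.31, but 0.47 without BMDM knockout 1, -0.14 without BMDC knockout 1 and 1.15 without BMDC knockout 2). Of 36 nuclear oxidative phosphorylation genes none was called (median log2 fold change 0.02, but 0.10 without BMDM knockout 1, -0.02 without BMDM knockout 2, -0.44 without BMDC knockout 1 and 0.65 without BMDC knockout 2).

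**Figure D4:**
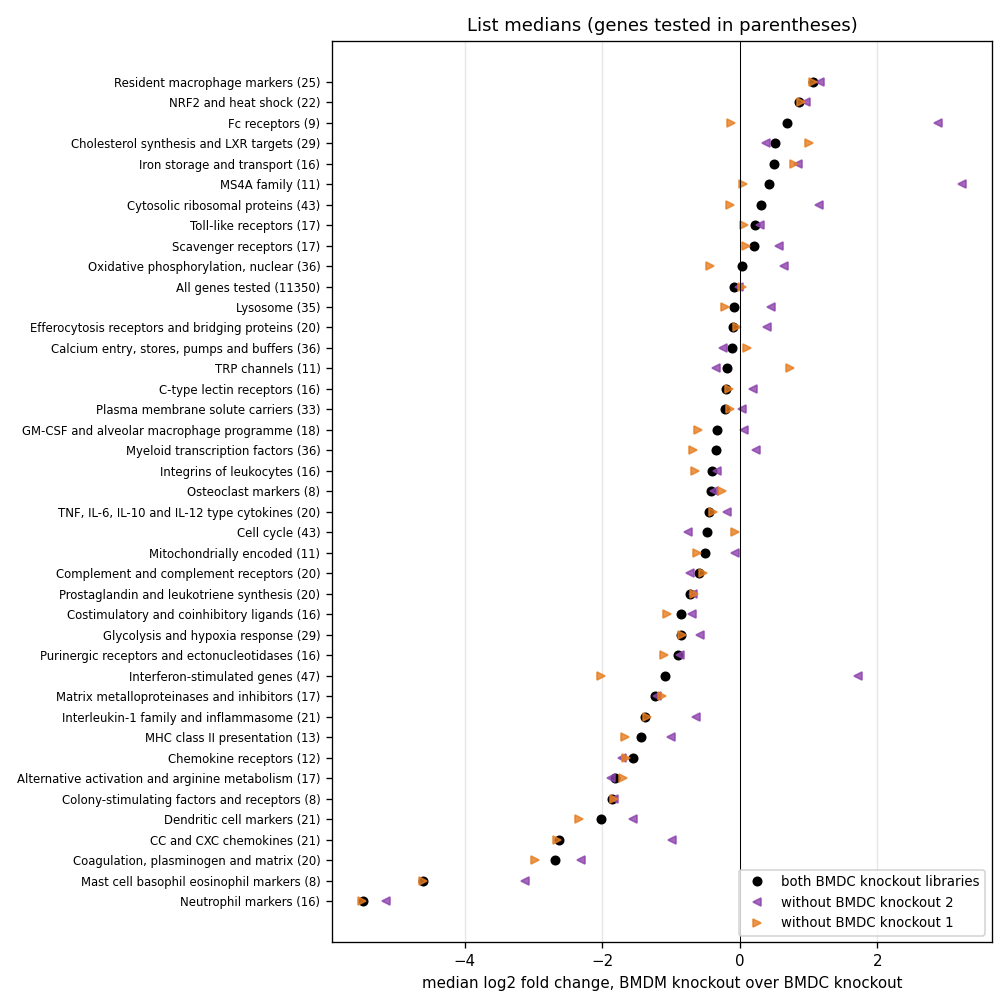
Median log2 fold change (BMDM knockout over BMDC knockout) of the 40 gene lists with at least 8 tested genes and of all genes, with both BMDC knockout libraries (black) or without 1 of them (triangles). The median has the same sign in all 3 fits for 28 of the 40 lists, and interferon-stimulated genes go to 1.71 without BMDC knockout 2 and to -2.01 without BMDC knockout 1.

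The remaining lists gave few calls. Of 18 genes of the GM-CSF and alveolar macrophage programme, 1 was called higher and 3 lower (median log2 fold change -0.34, but -0.19 without BMDM knockout 2, -0.61 without BMDC knockout 1 and 0.05 without BMDC knockout 2), the calls being Cd36 higher and Bhlhe40, Chil3 and Slc7a2 lower. Of 16 C-type lectin genes, 0 were called higher and 2 lower (median log2 fold change -0.20, but 0.19 without BMDC knockout 2), namely Mgl2 and Clec4n (241 and 259 CPM in the BMDM knockout against 1681 and 2221 CPM in the BMDC knockout, log2 fold change -2.96, SE 0.37, adjusted p = 0.031). Of 11 genes of the MS4A family with Tmem176a and Tmem176b, 2 were called higher and 0 lower (median log2 fold change 0.43, but 0.05 without BMDC knockout 1 and 3.23 without BMDC knockout 2). Of 43 cell cycle genes, 0 were called higher and 1 lower (median log2 fold change -0.48, but -0.06 without BMDC knockout 1 and -0.75 without BMDC knockout 2), the call being the cyclin gene Ccnd2 (log2 fold change -3.59, SE 0.53, adjusted p = 0.042), while Mki67 had 34.5 and 28 CPM against 129.7 and 49.4 CPM (log2 fold change -1.52, SE 0.52, adjusted p = 0.24). Among 17 Toll-like receptor genes, none was called (median log2 fold change 0.22, but 0.14 without BMDM knockout 1 and 0.06 without BMDC knockout 1), and Tlr1 had 231 and 252 CPM against 20.2 and 46.5 CPM (log2 fold change 2.86, SE 0.50, adjusted p = 0.058, but 1.2e-06 with the DESeq2 test and 0.027 with the length trend removed). Of 3 tested T and NK cell markers, 1 was called higher and 0 lower (median log2 fold change -0.32, but -0.17 without BMDM knockout 2 and -0.16 without BMDC knockout 2). Cd4, which some macrophages express, was higher (22.7 and 21.8 CPM against 1.9 and 1.8 CPM, log2 fold change 3.58, SE 0.37, adjusted p = 0.02). Of 7 tested stromal and endothelial markers, 0 were called higher and 1 lower (median log2 fold change -2.1). The surface glycoprotein gene Thy1 had 2 and 0 reads against 131 and 79 reads (BMDC over BMDM ratio 102.5, interval 28.0 to 852, adjusted p = 0.04, edgeR). Clec4n and Ccnd2 did not pass without BMDM knockout 1 (adjusted p = 0.11 to 0.37) or without BMDM knockout 2 (adjusted p = 0.24 to 0.29).

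Calcium genes, the class that Trpv2 belongs to by function, were counted against the 2.48% of all tested genes that were called, a share at which lists of this length may hold no call. Of 11 TRP channel genes, none was called (median log2 fold change -0.19, but -0.10 without BMDM knockout 2, 0.72 without BMDC knockout 1 and -0.35 without BMDC knockout 2), and of 36 genes of calcium entry, stores, pumps and buffers, none was called (median log2 fold change -0.11, but 0.11 without BMDC knockout 1 and -0.24 without BMDC knockout 2). Trpm2, a channel gated by ADP-ribose, had 5.07 and 6.55 CPM in the BMDM knockout and 33.7 and 20.7 CPM in the BMDC knockout (log2 fold change -2.22, SE 0.41, adjusted p = 0.067, but 4.5e-04 with the DESeq2 test and 0.031 with the length trend removed). The lysosomal channel gene Mcoln3 had 50.8 and 38 CPM against 20.4 and 13.9 CPM (log2 fold change 1.37, SE 0.36, adjusted p = 0.14, but 0.046 with the DESeq2 test).

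Set beside the control cultures, the called knockout differences went the same way. In the control libraries, 4311 of 11252 genes (38.3%) differed between BMDM and BMDC, 1995 higher (17.7%) and 2316 lower (20.6%) in BMDM. Of the knockout calls tested in both fits, 87 of 88 higher genes and 188 of 190 lower genes were also called in the same direction in the controls, and all had the same sign. The 2 comparisons share no library, but both set the BMDM count table against the BMDC count table. Read from the other side, those genes are 4.39% of 1981 higher and 8.25% of 2278 lower control calls. The median log2 difference of the genes called higher in the knockout was 3.57 in the knockout and 3.39 in the control, and of those called lower -4.37 and -4.31. Over the 11084 genes tested in both fits, 7930 (71.5%) had the same sign in knockout and control. Across genes, which are not independent, the Pearson correlation of the log2 fold changes was 0.830 and the Spearman correlation 0.654. The Pearson value depended on the BMDC library, at 0.909 without BMDC knockout 2 and 0.620 without BMDC knockout 1.

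**Figure D5:**
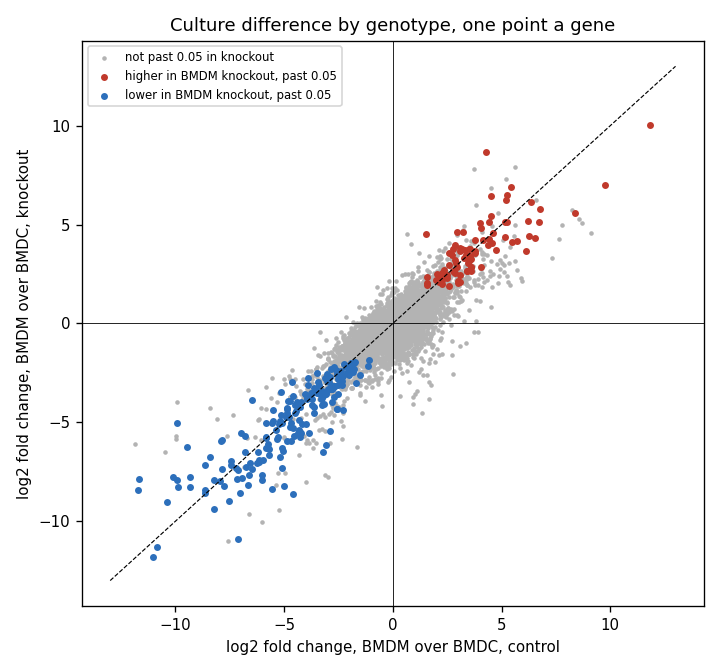
Each point is 1 gene, with the log2 fold change of BMDM over BMDC in the knockout (vertical axis) against that in the control (horizontal axis), and a dashed line of equality. Genes past 0.05 in the knockout (88 higher in red, 190 lower in blue) lie in the upper right and lower left corners.

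No gene passed the test of whether the culture difference itself differed between knockout and control. In the fit of all 8 libraries, 0 of 11671 genes (0%) passed in edgeR, with 225 at an unadjusted p under 0.05, and 0 passed in DESeq2 (338 unadjusted) and in limma-voom (183 unadjusted). The smallest adjusted p in edgeR was 0.841. Without BMDC knockout 1, so that BMDC knockout 2 stood alone for its group, 3733 genes passed, against 0 without BMDC knockout 2. Control genes called at 2-fold or more rarely turned: 82 of 1010 higher and 22 of 1276 lower ones had the opposite sign in the knockout, and 8 and 2 did without BMDC knockout 2. Without BMDC knockout 1 these counts were 216 of 1010 and 432 of 1272. Trpv2 itself was lower in BMDM than in BMDC in the knockout and higher in the control (log2 -0.73 against 0.39, difference -1.11, SE 0.40, edgeR unadjusted p = 0.024, adjusted p = 0.841).

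Genes without reads in a whole group were few. Among the 281 calls, 5 had no read in both libraries of one culture, and they are named here although they fall outside the rule for named genes and were chosen after their values were seen. Serpinb9b, a serine protease inhibitor, had 46 and 53 reads in the BMDM knockout and none in the BMDC knockout. It was 33.8-fold higher in BMDM with the BMDC group set to a floor of 3 counts over both libraries (lower 95% counting limit 27.0, adjusted p = 0.043, edgeR). Ptx3, a secreted pentraxin, had no read in the BMDM knockout against 359 and 148 reads in the BMDC knockout. It was 165-fold lower with the BMDM group set to the same floor (lower limit 133.7, adjusted p = 0.026, edgeR). Igfbp6, Gimap9 and Tnfsf8 were likewise unread in the BMDM knockout and 31.6-fold, 30.6-fold and 27.0-fold lower at that floor (lower limits 25.2, 24.4 and 21.5). Genes listed in only 1 table were not tested. Of 622 genes listed only for BMDM, 2 had a mean of at least 1 CPM in the knockout, Cd209f with 2.91 and 4.19 CPM and Capn11 with 1.20 and 1.40 CPM. Of 1066 genes listed only for BMDC, 28 did, led by the chemokine gene Ccl17 with 17.3 and 31.6 CPM and Cstdc4 with 19.6 and 21.0 CPM. Crisp1 (9.91 and 1.71 CPM), Igfbp5 (9.50 and 1.65 CPM) and Cdh1, the E-cadherin gene (8.85 and 0.967 CPM), followed, each higher in BMDC knockout 1. These levels are relative to the library total.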

How the data were processed

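Poly(A) RNA of cultured mouse bone marrow cells was sequenced as stranded libraries, trimmed with cutadapt and counted with HTSeq, per the labels' protocols; the aligner, the versions of the tools and how strand was set in counting are not given in the sources used. The authors deposited whole-number read counts per gene, in 1 table for BMDM and 1 for BMDC, and FPKM values made from them, per the file headers; the FPKM values were not tested. The protocol names GRCm38 and the submitters' processing notes name GRCm38 and GRCm39, so no deposited coordinate is set against the RefSeq promoters.

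The tables were joined by gene identifier. The 4 knockout libraries were fitted alone with edgeR 4.0.16 (R 4.3.3), with TMM factors on the table totals, the filter filterByExpr (minimum count 10) and a threshold of 0.05 on the Benjamini-Hochberg adjusted p. The 4 control libraries were fitted alone in the same way, and the difference between the culture effects in all 8. Fold changes are BMDM over BMDC. Intervals are exact at 95% and cover counting error only.

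The members and the 45 gene lists were chosen with earlier results of these data known. The rule named Trpv2, Lyz2, the 6 markers, the 12 largest calls each way (no overlap between groups, mean over 4 libraries 10 CPM or more), list members beside their list's count, and the highest genes of 1 table only. Not every gene the rule names is reported.

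Alternatives were limma-voom (limma 3.58.1), the test and then only the size factors of DESeq2 1.42.0, all genes without a low-count filter, genes above 1 CPM in 2 libraries, a log2 size of at least 1, removal of the trend with gene length, a replicate block, the fit of all 8 libraries, and leaving out each library. The replicate numbers do not state a pairing between cultures.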

Additional observations from a re-analysis of the deposited data

Results flagged for a closer look

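Trpv2 had a log2 fold change of -0.73 (BMDM over BMDC) in the knockout, where both BMDM libraries lay below both BMDC libraries, and of 0.39 in the control, where both BMDM libraries lay above both BMDC libraries. The test of that difference gave -1.11 (SE 0.40, edgeR unadjusted p = 0.024, adjusted p = 0.841), so it did not pass after adjustment.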

How the results depend on the processing

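Of the 106 genes past the threshold that the rule names, none changed sign in any of the 12 refits, 74 and 76 kept their call without BMDM knockout 1 and 2, 90 under limma-voom, and at least 101 under each other refit. Of 29 further genes not past the threshold, 15 passed with the DESeq2 test, 9 with the length trend removed, 16 with a replicate block, 11 in the fit of all 8 libraries, and 27 and 22 without BMDC knockout 1 and 2. C1qa, C1qb, C1qc and Apoe passed in the first 3 of these, C1qa at an adjusted p of 1.9e-06 with the block. Counts of calls moved more. In the knockout comparison, the higher and lower counts (88 and 193 as reported) were 357 and 589 with the DESeq2 test, 202 and 355 with the length trend removed, 395 and 541 in the fit of all 8 libraries, and 500 and 679 with a replicate block. The block is not a stated pairing; across genes, the difference between replicates 1 and 2 correlated between the cultures (Pearson 0.349). Leaving out 1 library gave 72 to 2619 higher and 164 to 2700 lower genes, the high ends without BMDC knockout 1. In the control comparison (1995 and 2316), the counts were 1024 and 1314 at a log2 size of at least 1, 545 and 593 in the fit of all 8 libraries, and 504 to 2335 and 725 to 2660 with 1 library left out, lowest without BMDM control 1. The test between genotypes gave 0 to 3733 genes with 1 library left out and 0 under each other alternative.

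Genes that did not pass turned with BMDC knockout 2, as fits that leave out 1 library ranged from -2.85 to 3.76 for Isg15, -2.47 to 3.01 for Rsad2, -3.92 to 2.07 for Irf7, -4.06 to 2.96 for Cxcl10 and -0.64 to 0.28 for Csf2ra. Isg15 and Rsad2 also turned to 0.47 and 0.28 under limma-voom and to 0.37 and 0.23 with the replicate block. The causes were not tested. With 2 libraries a group and a BMDC pair that differs widely, the smallest difference called in edgeR had a log2 size of 1.86, while the DESeq2 test called Adgre1 at 1.42 (adjusted p = 0.014), and a gene that did not pass is not shown to be equal. Fits with 1 BMDC library rest on the spread of the BMDM pair.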

Other observations

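Interferon alpha genes, listed only in the BMDC table and so outside the comparison, were read in 1 of the 2 BMDC knockout libraries. Ifna5 had 0 reads in BMDC knockout 1 and 54 reads in BMDC knockout 2, and Ifna4 had 0 and 29 reads. Genes of granule and eosinophil proteins in the same table leaned the same way, with 7 and 79 reads of Prg2, 7 and 58 reads of Mpo and 18 and 72 reads of Prtn3, whereas collagen and junction genes leaned to BMDC knockout 1, with 46 and 2 reads of Col1a2 and 69 and 18 reads of Gja5. These genes were picked after their values were seen.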
